A study of Mus musculus with 12 samples.

Results

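The genes Klk5, Klk6, Klk7, Klk8, Klk9, Klk10, Klk11, Klk12, Klk13 and Klk14 encode kallikrein-related peptidases, secreted serine proteases that shed dead cells from the skin surface. These 10 genes were found by symbol among the 55416 Ensembl gene identifiers of the deposited tables. The family was selected on expected counts across the 4 groups that were already known. Its levels, differences and counts of calls are therefore given as a description, with no p-value printed for any single gene of the 10.

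Kallikreins are made by upper keratinocytes as inactive precursors, stored in lamellar granules and released between the outermost cell layers. There they cut corneodesmosin and the desmosomal cadherins that rivet corneocytes together, and so let the outer cells come loose, a process called desquamation. In human skin KLK5 can activate itself and several of its relatives, and the inhibitor LEKTI, encoded by Spink5, holds them back. Kallikreins also process filaggrin and antimicrobial peptides and can act on the receptor encoded by F2rl1.

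Bulk mRNA from the ear skin of C57BL/6 mice aged 8 to 12 weeks was sequenced on day 6, in 12 libraries that form 4 groups of 3. IMQ_GW3965 and IMQ_Troglitazone received imiquimod together with an intraperitoneal drug, GW3965 at 20 mg/kg or troglitazone at 150 mg/kg, once a day from day 3. GW3965 is an agonist of the liver X receptors, and troglitazone is an agonist of the nuclear receptor PPARγ. IMQ_Veh received imiquimod with DMSO, the vehicle of both drugs. Imiquimod, which activates Toll-like receptor 7 and provokes psoriasis-like inflammation, was spread daily on the back of the ears as 20.8 mg of Aldara cream at 5% by weight. UTX_Veh has the vehicle and no imiquimod in its label; UTX is not spelled out, so imiquimod and cream base cannot be told apart. The labels give all groups the same strain and leave unsaid whether replicate libraries came from separate animals, so p-values measure the spread between libraries, which may be technical.

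Total expected counts per library lay between 18242074 and 25641602, and the 10 genes together took 0.062% to 0.431% of them. CPM, counts scaled to library size with TMM factors, are used between libraries, and TPM, which also account for transcript length, between genes. All 7 suprabasal and 4 basal keratinocyte markers were detected in every group. A pair of libraries stood apart. IMQ_GW3965 replicate 3 held 11.624% of its counts in ENSMUSG00000119584, a feature at 0.045% to 0.138% elsewhere. In IMQ_Veh replicate 3 the 6 skeletal muscle markers summed to 3520 CPM, against 872 and 725 CPM in the other IMQ_Veh libraries, and the 5 fibroblast markers to 8820 CPM, against 3910 and 1750 CPM. Results are given with and without both libraries where it matters.

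The genes lie side by side on the forward strand of chromosome 7, at chr7:43690418-43851181 on GRCm38, in the order Klk14, Klk13, Klk12, Klk11, Klk10, Klk9, Klk8, Klk7, Klk6 and Klk5. The block spans 160.8 kb and contains 13 annotated genes, of which 10 are these kallikreins. The antisense gene 2310002F09Rik overlaps the 7 genes Klk14 to Klk8, with 0.676 to 1.66 CPM in the 12 libraries. The sense gene models Gm44817 and Gm44814, which overlap Klk14 and Klk13, stayed below 1 CPM. The strand setting of the counting is not given in the sources used here, so reads of an antisense overlap cannot be told apart.

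What each protease cuts is set by the pocket that holds its substrate, and the family splits there. The 30 coding bases below run, in each GENCODE transcript with the longest coding sequence, from the codon of the residue at the bottom of that pocket to just past the catalytic serine. Capitals mark those codons, the pocket first and the serine after it.
Klk5: GACtcctgccagggtgatTCCggaggtcct
Klk6: GATtcctgtcagggtgatTCTggaggtccc
Klk8: GACacgtgccagggtgacTCAggaggccct
Klk10: GACtcttgccagagtgacTCCggtggcccc
Klk11: GACtcctgtcagggtgacTCTggaggcccc
Klk12: GATgcctgtcagggtgacTCTggaggcccc
Klk13: GACtcctgtgagggtgatTCTgggggccca
Klk14: GACtcctgtcagggtgatTCTgggggaccc
Klk7: AACacgtgcaatggtgacTCAggggggccc
Klk9: GGCtcttgccagggtgacTCTgggggaccc
In all 10 the stretch crosses the junction between the last pair of coding exons, with 12 bases before it and 18 after it. The pocket codon was GAC or GAT, for aspartate, in 8 genes, as in trypsin-like proteases that cut after arginine or lysine. It was AAC, for asparagine, in Klk7, long known as the chymotryptic enzyme of the stratum corneum, and GGC, for glycine, in Klk9. The codon of the catalytic serine was present in all 10. In Klk7 the pieces of the stretch lie at chr7:43813355-43813366 and chr7:43815297-43815314, at the end of exon 5 and in exon 6, and in Klk9 at chr7:43795677-43795688 and chr7:43795991-43796008, at the end of exon 4 and in exon 5, all on the forward strand of GRCm38.

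In UTX_Veh skin, kallikrein mRNA was mostly Klk7 and Klk5. Klk7 led at 312 ± 3.75 TPM (SD, n = 3) and made up 40.2% ± 0.926 of the summed TPM of the family. Klk5, the activator of the cascade in human skin, followed at 164 ± 1.72 TPM and 21.2% ± 0.569. Klk8, a trypsin-like enzyme also called neuropsin, came next at 96.5 ± 5.24 TPM. Below these came Klk10 at 70.3 ± 10.7 TPM and Klk11 at 63.0 ± 5.45 TPM, which overlapped each other, and then Klk9 at 33.9 ± 5.07 TPM and Klk6 at 30.7 ± 3.83 TPM, which also overlapped. Klk13 had 3.78 ± 1.03 TPM and Klk12 0.833 ± 0.734 TPM. Klk14 was at the limit of detection, with 5 counts in UTX_Veh replicate 1 and 0 in the other UTX_Veh libraries, where a count of 0 allows up to 3.

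**Figure D1:**
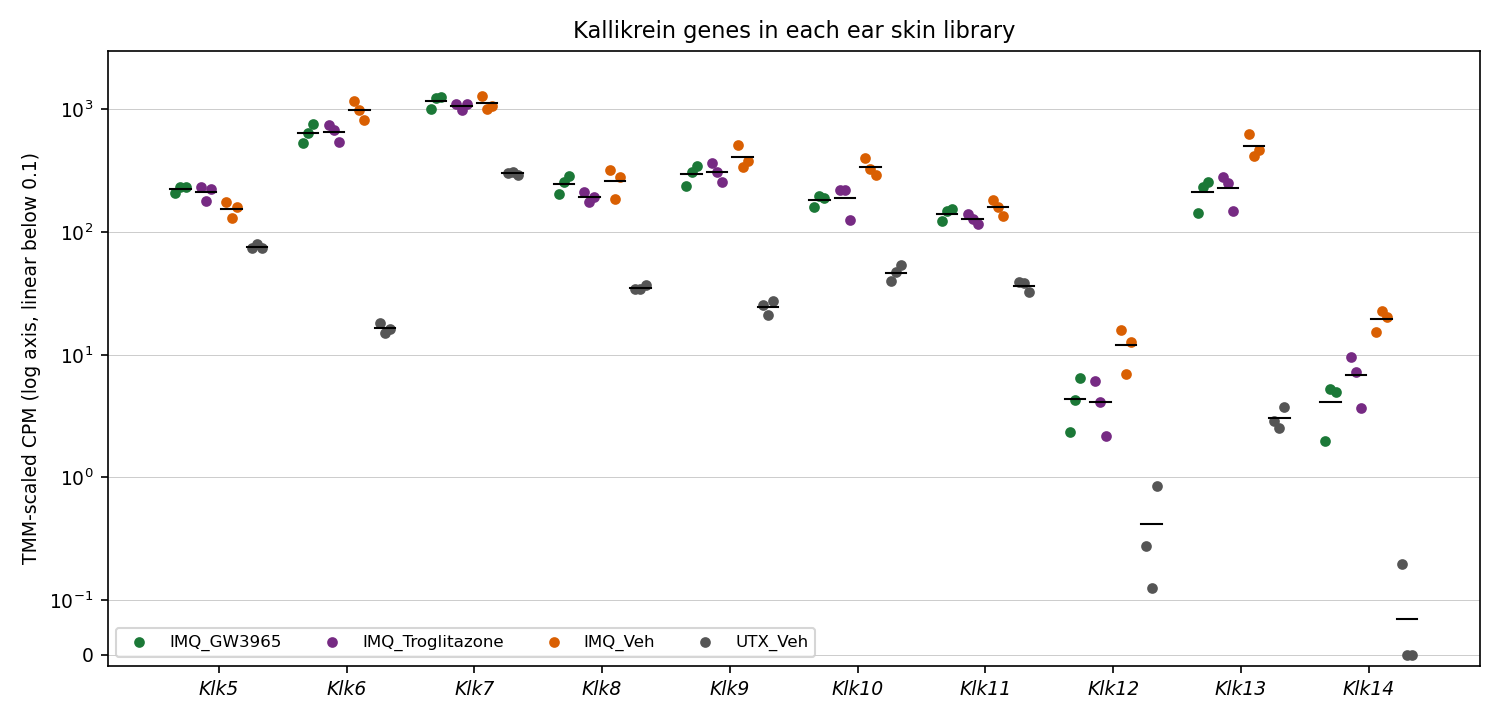
Kallikrein levels in every library, as TMM-scaled CPM on a log axis that is linear below 0.1 (vertical), for the 10 genes (horizontal); points are libraries in the order IMQ_GW3965, IMQ_Troglitazone, IMQ_Veh and UTX_Veh, and bars are means of 3. All 10 genes sit lowest in UTX_Veh; Klk7 overlaps among the imiquimod groups, while Klk13 and Klk14 are highest in IMQ_Veh.

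With imiquimod every kallikrein was higher, by amounts that differed greatly along the block. Of the 10 genes, 10 passed an adjusted p of 0.05 in edgeR's quasi-likelihood test as higher in IMQ_Veh than in UTX_Veh, where 33.0% of the 17130 genes tested were called higher and 28.9% lower. This contrast was among the values that chose the family, so nothing is read from that count. The median log2 difference was 3.479 over the 10 genes and 0.008 over all genes tested.

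The smallest and the largest differences belonged to genes with different resting levels. Klk5 had 175, 131 and 159 CPM in IMQ_Veh, against 73.5, 79.4 and 73.7 CPM in UTX_Veh, a log2 difference of 1.04 ± 0.12 (SE). Klk7 had 1280, 1010 and 1060 CPM in IMQ_Veh, against 300, 309 and 291 CPM in UTX_Veh (1.90 ± 0.12). These genes, the most abundant in UTX_Veh, showed the smallest differences of the family, without overlap of the groups. Klk6, a trypsin-like enzyme, had 1170, 991 and 811 CPM in IMQ_Veh, against 18.3, 15.1 and 16.1 CPM in UTX_Veh (5.91 ± 0.21). Klk13 had 630, 414 and 466 CPM in IMQ_Veh, against 2.87, 2.55 and 3.72 CPM in UTX_Veh (7.37 ± 0.36). Klk14, which in human skin is among the kallikreins of trypsin-like activity, had 15.4, 22.9 and 20.3 CPM in IMQ_Veh, against 0.197, 0 and 0 CPM in UTX_Veh. All IMQ_Veh libraries thus stood far above all UTX_Veh libraries for these 3 genes. The fitted log2 difference of Klk14 was 8.04 ± 0.72, and it depends on the 5 counts of UTX_Veh replicate 1: without that library it was 11.71, a value set by the prior count of the fit.

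The other members lay between. Klk8, Klk9, Klk10 and Klk11 had means of 261, 410, 339 and 159 CPM in IMQ_Veh, against 35.1, 24.5, 46.8 and 36.6 CPM in UTX_Veh, and log2 differences of 2.89, 4.06, 2.86 and 2.12. Klk12, a trypsin-like enzyme at low level, had 16, 6.92 and 12.8 CPM in IMQ_Veh, against 0.275, 0.125 and 0.854 CPM in UTX_Veh (4.82 ± 0.63; 5.84 without UTX_Veh replicate 3). For each of the 10 genes the lowest IMQ_Veh library was above the highest UTX_Veh library, as it was for 34.7% of all genes tested, and nothing is read from that count. Within the lane fields L001 and L009 of the file names, which the labels do not explain, the log2 ratios of means (with 0.05 CPM added) were 0.78 and 1.18 for Klk5, 1.74 and 2.01 for Klk7, 5.88 and 5.94 for Klk6 and 7.23 and 7.18 for Klk13.

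Because the differences were so unequal, the makeup of kallikrein mRNA was not the same. Klk6 made up 29.6% ± 3.17 of family TPM in IMQ_Veh, against 3.96% ± 0.433 in UTX_Veh, and stood first in IMQ_Veh at 1200 ± 166 TPM. Klk7 made up 19.6% ± 0.682 in IMQ_Veh, against 40.2% ± 0.926 in UTX_Veh. Klk5 made up 5.47% ± 0.793 in IMQ_Veh, against 21.2% ± 0.569 in UTX_Veh. In every library of the group, Klk6 was above Klk7 in IMQ_Veh and below it in UTX_Veh: the TPM ratio of Klk6 to Klk7 ran from 1.31 to 1.67 in IMQ_Veh and from 0.0841 to 0.107 in UTX_Veh. Next in IMQ_Veh came Klk8 at 521 ± 114 TPM, which overlapped Klk9 at 386 ± 65.1 TPM, and Klk9, Klk13 at 383 ± 66.6 TPM and Klk10 at 348 ± 39.2 TPM overlapped in turn. Klk5 at 222 ± 28.8 TPM and Klk11 at 183 ± 20.4 TPM overlapped, as did Klk14 at 22.2 ± 5.24 TPM and Klk12 at 15.6 ± 5.54 TPM. The genes without aspartate in the pocket differed in opposite directions as shares: Klk9, unlike Klk7, took more with imiquimod, at 9.41% ± 0.672 in IMQ_Veh, against 4.37% ± 0.589 in UTX_Veh.

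**Figure D2:**
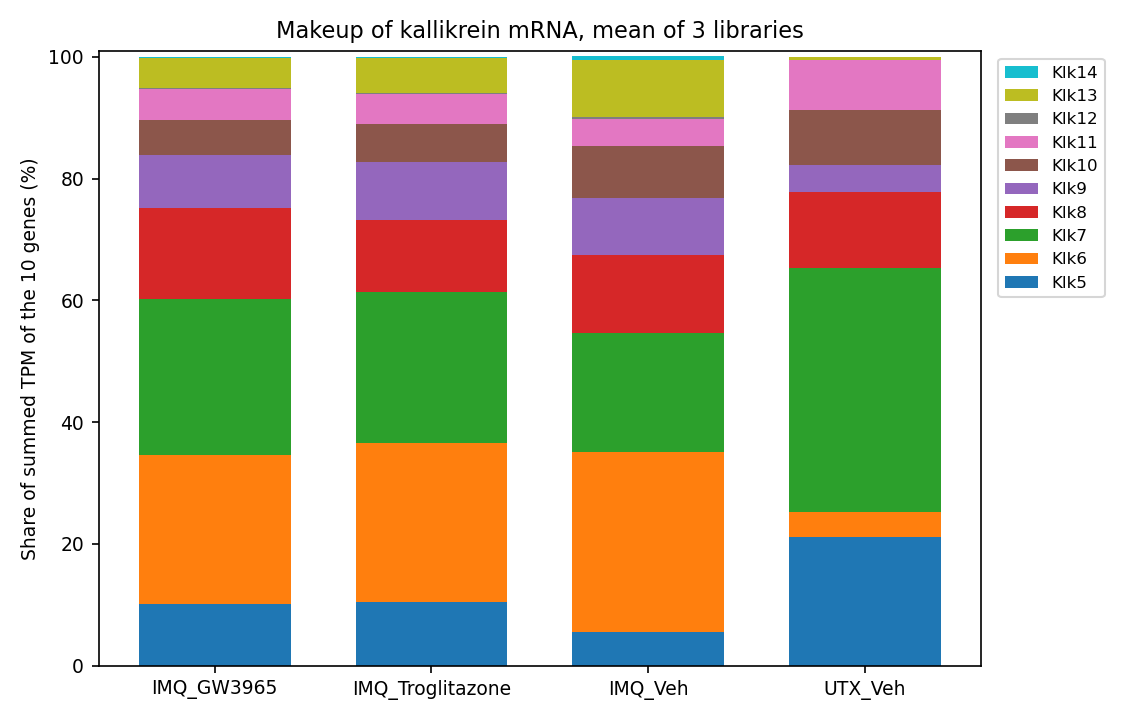
Makeup of kallikrein mRNA: mean share of each of the 10 genes in their summed TPM (vertical, %), over the 3 libraries of IMQ_GW3965, IMQ_Troglitazone, IMQ_Veh and UTX_Veh (horizontal). Klk6 takes 24.4%, 26%, 29.6% and 3.96% of the bar in that order, and Klk5 10.2%, 10.5%, 5.47% and 21.2%.

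Against IMQ_Veh, each drug group had less Klk14, Klk13, Klk10 and Klk6 mRNA and more Klk5 mRNA. In IMQ_GW3965, 4 members were called lower (Klk14, Klk13, Klk10 and Klk6) and 1 higher (Klk5), where 2.88% of all genes tested were called lower and 3.71% higher. In IMQ_Troglitazone the calls were again 4 lower and 1 higher, for the genes just named, where 4.65% of all genes were called lower and 4.69% higher. Since the family was chosen with these values known, nothing is read from the counts, and both comparisons share the IMQ_Veh libraries. Groups did not overlap for 5 members on the lower side and 1 on the higher side with either drug, where 12.0% of all genes lay lower and 12.7% higher without overlap with GW3965, and 14.0% and 11.8% with troglitazone. The median log2 difference was -0.546 with GW3965 and -0.517 with troglitazone over the 10 genes, and -0.011 and -0.018 over all genes tested.

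Klk13 had 142, 233 and 257 CPM in IMQ_GW3965, 283, 249 and 149 CPM in IMQ_Troglitazone, and 630, 414 and 466 CPM in IMQ_Veh. Its log2 differences were -1.26 ± 0.27 with GW3965 and -1.15 ± 0.26 with troglitazone. Klk14 had 1.99, 5.30 and 5.00 CPM in IMQ_GW3965, 9.65, 7.18 and 3.69 CPM in IMQ_Troglitazone, and 15.4, 22.9 and 20.3 CPM in IMQ_Veh. For both genes all 6 drug libraries lay below all IMQ_Veh libraries, at log2 -2.27 ± 0.45 and -1.52 ± 0.43 for Klk14. Klk6 had 536, 646 and 752 CPM in IMQ_GW3965, 742, 675 and 543 CPM in IMQ_Troglitazone, and 1170, 991 and 811 CPM in IMQ_Veh (-0.62 ± 0.17 and -0.60 ± 0.17). Klk10 had 159, 196 and 189 CPM in IMQ_GW3965, 219, 222 and 125 CPM in IMQ_Troglitazone, and 401, 324 and 292 CPM in IMQ_Veh (-0.90 ± 0.20 and -0.85 ± 0.20). These drug libraries too stayed below every IMQ_Veh library.

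Klk5 went the other way. It had 208, 232 and 232 CPM in IMQ_GW3965, 232, 178 and 224 CPM in IMQ_Troglitazone, and 175, 131 and 159 CPM in IMQ_Veh, at log2 0.53 ± 0.12 with GW3965 and 0.45 ± 0.12 with troglitazone. It was therefore higher in IMQ_Veh than in UTX_Veh and higher again in each drug group, without overlap. Klk7 had 999, 1240 and 1250 CPM in IMQ_GW3965, 1110, 980 and 1110 CPM in IMQ_Troglitazone, and 1280, 1010 and 1060 CPM in IMQ_Veh, with overlap of all 3 groups (0.05 ± 0.12 and -0.07 ± 0.12). Klk8, Klk9 and Klk11 also overlapped IMQ_Veh in both drug groups and were not called, with log2 differences of -0.08, -0.47 and -0.17 with GW3965 and -0.43, -0.40 and -0.31 with troglitazone. Klk12 did not overlap and was not called by edgeR, at -1.45 ± 0.50 and -1.52 ± 0.50, whereas DESeq2 called it with both drugs and so counted 6 members in each comparison. Klk12 had 2.35 to 6.49 CPM in IMQ_GW3965, 2.18 to 6.09 CPM in IMQ_Troglitazone and 6.92 to 16 CPM in IMQ_Veh.

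All drug libraries stayed above all UTX_Veh libraries for each of the 10 genes, as they did for 28.1% of all genes tested; the family was chosen on these counts. The mean CPM of Klk6 was 39.0 times that of UTX_Veh in IMQ_GW3965, 39.6 times in IMQ_Troglitazone and 60.1 times in IMQ_Veh. For Klk13 these multiples were 69.1, 74.5 and 165. The summed CPM of the family was 3120 ± 449 in IMQ_GW3965, 2990 ± 301 in IMQ_Troglitazone, 3970 ± 639 in IMQ_Veh and 539 ± 7.43 in UTX_Veh, and the highest IMQ_GW3965 library, at 3470, lay just below the lowest IMQ_Veh library, at 3590. In the drug groups Klk6 and Klk7 were level at the top: Klk7 had 800 ± 78.5 TPM and Klk6 758 ± 46.4 TPM in IMQ_GW3965, and Klk6 had 963 ± 138 TPM and Klk7 914 ± 49.5 TPM in IMQ_Troglitazone, with overlap in each group.

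**Figure D3:**
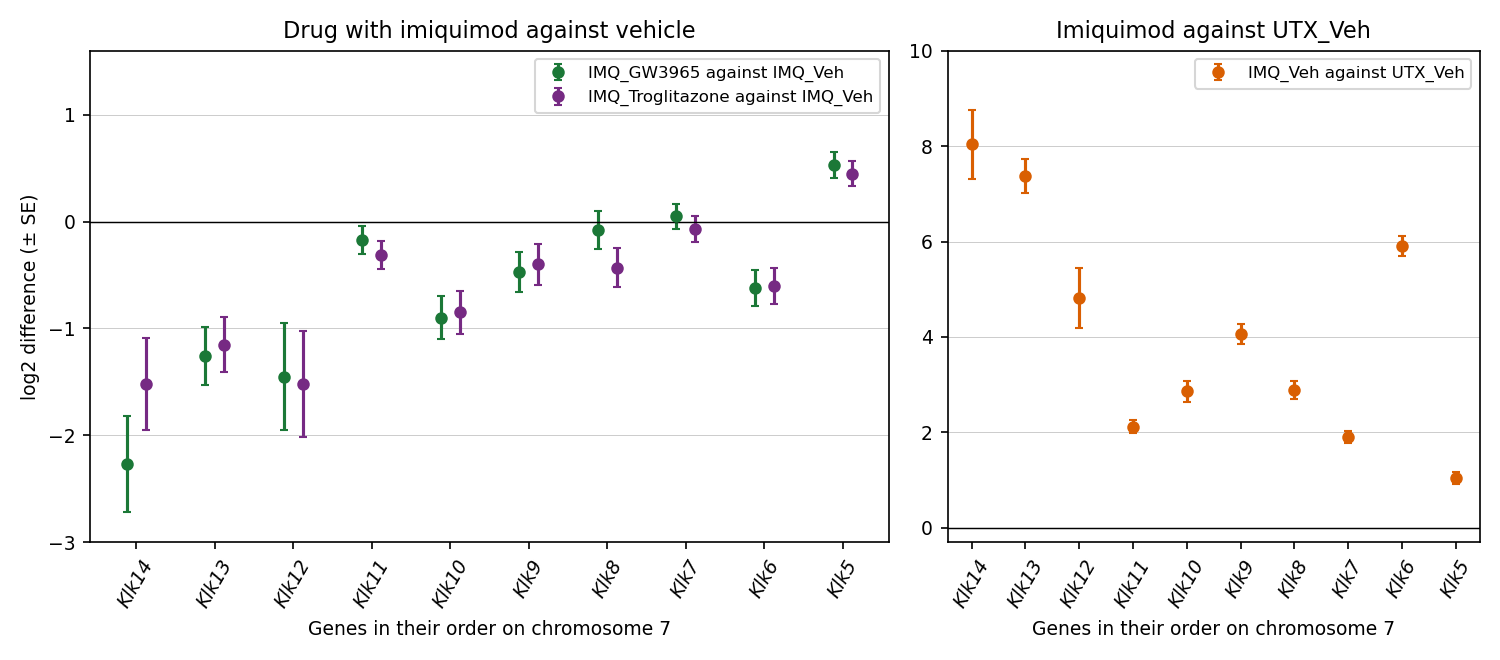
Fitted log2 differences ± SE of the 10 genes (vertical) in their order on chromosome 7 (horizontal): left, IMQ_GW3965 and IMQ_Troglitazone against IMQ_Veh; right, IMQ_Veh against UTX_Veh. The 3 genes at the Klk14 end lie lowest on the left, from -1.15 to -2.27, though Klk12 among them was not called. Klk5 at the other end is the member called higher there, while its neighbour Klk6 was called lower.

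The calls against IMQ_Veh were sensitive to single libraries, while the directions of the 5 called genes were not. With GW3965 the 5 calls became 0 without IMQ_GW3965 replicate 1, 1 without replicate 2 and 2 without replicate 3, and 0 and 3 without IMQ_Veh replicates 1 and 2. With troglitazone they became 2, 3 and 0 without IMQ_Troglitazone replicates 1, 2 and 3, and 0 and 3 without IMQ_Veh replicates 1 and 2. Without both libraries that stood apart the counts were 5 with GW3965 and 6 with troglitazone. A fit with the lane field as a covariate called 3 and 2 members. Klk5 lost its call there with its fitted difference unmoved, at 0.53 ± 0.13 with GW3965 and 0.45 ± 0.13 with troglitazone. Within lane fields L001 and L009, with 1 or 2 libraries per group in each, the log2 ratio of means of Klk5 was 0.74 and 0.48 with GW3965 and 0.80 and 0.10 with troglitazone, and that of Klk13 was -1.05 and -1.23 with GW3965 and -0.94 and -1.14 with troglitazone.

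Between the drugs no kallikrein difference passed the threshold. Of the 10 genes, 0 were called between IMQ_GW3965 and IMQ_Troglitazone by edgeR or DESeq2, and 0 had an unadjusted edgeR p under 0.05. Of all genes tested, 1.86% were called in either direction and 16.0% had an unadjusted p under 0.05. The doses differ and the compounds are not analogs. A missed threshold does not show equal levels, and the intervals were wide for the scarce genes. The 95% interval of the log2 difference ran from -1.79 to 0.28 for Klk14, from -0.71 to 0.49 for Klk13, from -0.05 to 0.76 for Klk8 and from -0.19 to 0.36 for Klk5.

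The summed markers of the upper epidermis, where kallikreins are made, also differed between the groups. The 7 suprabasal and granular markers (Flg, Ivl, Krt1, Krt10, Krt2, Lor and Tgm3) summed to 54500 to 64000 CPM in IMQ_GW3965, 56200 to 63200 CPM in IMQ_Troglitazone, 40900 to 45800 CPM in IMQ_Veh and 20600 to 26000 CPM in UTX_Veh. In bulk tissue, fewer cells of a type and less RNA per cell cannot be told apart. The 7 markers did not move together: 2 were called higher and 1 lower with GW3965, and 1 higher and 1 lower with troglitazone. Krt10 was higher in both drug groups, with 21800 CPM in IMQ_GW3965, 21600 CPM in IMQ_Troglitazone and 14500 CPM in IMQ_Veh, and Tgm3 was lower, with 291, 273 and 561 CPM in that order. Krt2, not called, averaged 12600, 15800 and 5500 CPM and ran from 1800 to 12900 CPM within IMQ_Veh, and Krt1, also not called, averaged 18800, 15300 and 18100 CPM. As a share of this marker sum in the same library, the family summed to 5.17% ± 0.329 in IMQ_GW3965, 4.99% ± 0.414 in IMQ_Troglitazone, 9.27% ± 0.877 in IMQ_Veh and 2.38% ± 0.251 in UTX_Veh. On this scale the drug libraries, at 4.51% to 5.42%, did not overlap the IMQ_Veh libraries, at 8.75% to 10.3%. With each marker left out of the sum in turn, or with the geometric mean of the 7, alternatives chosen after seeing the data, the log2 difference of this share from IMQ_Veh stayed between -1.11 and -0.72 with GW3965 and between -1.28 and -0.67 with troglitazone, without overlap.

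**Figure D4:**
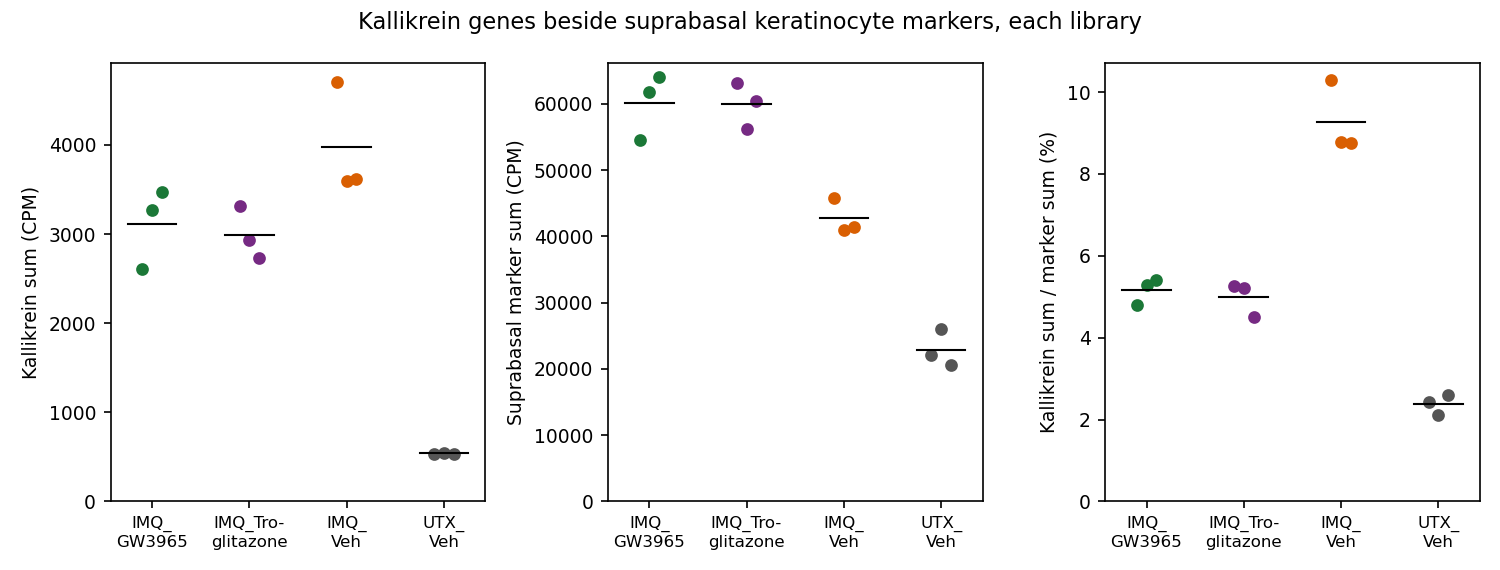
Each library as a point, with group means as bars: summed CPM of the 10 kallikreins (left), summed CPM of 7 suprabasal keratinocyte markers (middle) and the first as a percent of the second (right), for IMQ_GW3965, IMQ_Troglitazone, IMQ_Veh and UTX_Veh. The marker sum is highest in the drug groups, and the percent is highest in IMQ_Veh, at 8.75% to 10.3%.

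Per marker, Klk5 overlapped between each drug group and IMQ_Veh. It had 3.73 ± 0.0976 CPM per 1000 CPM of the marker sum in IMQ_GW3965, 3.52 ± 0.301 in IMQ_Troglitazone, 3.62 ± 0.355 in IMQ_Veh and 3.32 ± 0.262 in UTX_Veh, and the overlap with IMQ_Veh held for both drugs under every one of those marker choices. Between IMQ_Veh and UTX_Veh the result depended on the markers: the log2 difference of Klk5 was 0.12 with the full sum, 0.88 without Krt1, -0.43 without Krt2 and -0.51 with the geometric mean. Klk7 had 19.3 ± 0.866, 17.8 ± 0.518, 26.2 ± 1.67 and 13.2 ± 1.19 in the same order of groups, and Klk6 had 10.7 ± 0.972, 10.9 ± 1.67, 23.2 ± 3.16 and 0.732 ± 0.132. On this scale both Klk6 and Klk7 were lower in every drug library than in any IMQ_Veh library. Klk11, Klk8 and Klk9 likewise did not overlap between the drug groups and IMQ_Veh, at 2.25 to 2.40, 3.74 to 4.46 and 4.35 to 5.36 in IMQ_GW3965, at 1.94 to 2.28, 3.13 to 3.35 and 4.27 to 5.80 in IMQ_Troglitazone, and at 3.23 to 3.96, 4.53 to 6.97 and 8.26 to 11.2 in IMQ_Veh. The marker sum was itself higher in every drug library than in any IMQ_Veh library. A gene of level CPM, such as Klk7, is therefore lower on this scale. The share of all genes without overlap on this scale was not counted, and among single members other marker choices were run for Klk5 only. Nothing is read from the lack of overlap. The part of the marker sum in the differences by CPM was not tested.

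Markers of other cell types and layers moved between the groups as well. The 4 basal keratinocyte markers (Krt5, Krt14, Itga6 and Col17a1) summed to 19200 to 23000 CPM in IMQ_GW3965, 15400 to 20500 CPM in IMQ_Troglitazone, 22500 to 30500 CPM in IMQ_Veh and 10100 to 11200 CPM in UTX_Veh, with none at 0. Like the kallikrein sum, this sum was lowest in UTX_Veh and reached its highest value in IMQ_Veh, where it overlapped IMQ_GW3965. Most of it was Krt14 and Krt5, with means of 16100 and 8560 CPM in IMQ_Veh. Col17a1 went the other way, at 1110, 1130, 775 and 1900 CPM in the same order of groups. Between IMQ_Veh and UTX_Veh, 3 of the basal markers were called higher and 1 lower. The 6 neutrophil markers summed to 28.3 to 54.8 CPM in IMQ_GW3965, 36.2 to 62.8 CPM in IMQ_Troglitazone, 98.5 to 104 CPM in IMQ_Veh and 17.1 to 22.0 CPM in UTX_Veh, with none at 0 in any group. The 6 skeletal muscle markers summed to 3980 to 5800, 2790 to 4230, 725 to 3520 and 7890 to 9220 CPM in that order, again with none at 0. The 6 sebaceous gland markers summed to 699 to 907, 584 to 748, 224 to 579 and 580 to 649 CPM, and the 5 cartilage markers to 523 to 767, 472 to 689, 167 to 546 and 1050 to 1570 CPM, with Matn1 at 0 in UTX_Veh. The 5 fibroblast markers summed to 2470 to 3130, 2670 to 3650, 1750 to 8820 and 3830 to 6270 CPM, and the 7 hair follicle markers to at most 39.1 CPM. Single markers did not all follow these sums. Cxcr2 and Csf3r made most of the neutrophil sum in IMQ_Veh, at 47.2 and 36.6 CPM. Mmp9, not called, averaged 10.7 CPM in IMQ_Veh and 13.1 CPM in UTX_Veh. With each drug, 1 of 5 tested neutrophil markers was called lower. The sebaceous Elovl3, not called, averaged 148 CPM in IMQ_Veh and 103 CPM in UTX_Veh, where 4 of 5 tested sebaceous markers were called lower in IMQ_Veh. The part of these markers in the kallikrein differences was not tested. The 4 markers of salivary or other glands, tissues rich in classical kallikreins, summed to at most 18.9 CPM, with Prol1 at 0 in all groups and Smgc at 0 in the imiquimod groups. The 16 other kallikrein genes of the locus, Klk1, Klk4, Klk15 and 13 Klk1b genes, had at most 0.25 CPM as a group mean, and 9 had 0 counts in all 12 libraries; the Klk1b genes are near-identical copies among which RSEM can split reads.

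The members were also compared by their profiles, with a measure that counts the size of each difference as well as its direction. Over the 12 libraries, with log2 CPM (0.5 added) centred per gene, the root mean square difference was smallest between Klk7 and Klk11, at 0.143. Klk5 and Klk8 were each closest to Klk7, at 0.317 and 0.390, and Klk6 and Klk13 were closest to each other, at 0.5. Klk14 matched no member closer than 0.726, for Klk9. The 0.5 CPM added is more than the UTX_Veh means of Klk14 (0.0655 CPM) and Klk12 (0.418 CPM). It therefore shrinks their differences from UTX_Veh on this measure, and other offsets were not run. Outside the family, the genes nearest to the mean profile of the 10 were Cnfn, which encodes cornifelin of the cornified envelope, at 0.186, followed by Gm6166 at 0.193, AI506816 at 0.204, Gja1 (connexin 43) at 0.206 and Smox (spermine oxidase) at 0.207, of 10212 genes with a symbol and at least 10 CPM. Cnfn had 493 ± 122 CPM in IMQ_GW3965, 419 ± 88.0 CPM in IMQ_Troglitazone, 720 ± 139 CPM in IMQ_Veh and 69.5 ± 5.28 CPM in UTX_Veh. The closest gene to Klk7 was Gsdma, the pore-forming gasdermin A, at 0.072, to Klk5 Smpd3, a sphingomyelinase, at 0.113, to Klk8 Glrx (glutaredoxin) at 0.117 and to Klk6 Tcf23 at 0.254.

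The stretches before the starts of the closest pair, Klk7 and Klk11, are given here from RefSeq (GRCm38.p6), on the forward strand at chr7:43811044-43811293 and chr7:43774367-43774603. Capitals mark CACCC or its reverse complement, the letters bound by Krüppel-like factors, such as the barrier factor Klf4.
Klk7: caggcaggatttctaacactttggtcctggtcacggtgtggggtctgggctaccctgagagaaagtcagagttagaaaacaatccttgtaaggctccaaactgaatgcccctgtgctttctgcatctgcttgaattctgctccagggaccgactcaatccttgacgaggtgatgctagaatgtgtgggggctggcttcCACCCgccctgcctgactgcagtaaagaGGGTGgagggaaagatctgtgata
Klk11: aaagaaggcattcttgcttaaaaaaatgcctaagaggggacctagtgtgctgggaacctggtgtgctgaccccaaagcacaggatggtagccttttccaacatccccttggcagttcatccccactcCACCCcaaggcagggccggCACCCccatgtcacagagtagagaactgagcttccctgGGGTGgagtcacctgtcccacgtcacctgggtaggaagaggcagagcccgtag
RefSeq gave 12 promoter windows of 300 bases for the 10 genes. CACCC was found on either strand in 9 of the 12 windows and in 57.5% of the 32851 windows of all genes. Those 9 windows belong to 9 genes, Klk8 being the exception, and the second windows of Klk6 and Klk11 had no match. The AP-1 letters TGANTCA, bound by factors of the stress response, were in 0 of the 12 windows and in 7.81% of all windows. The STAT letters TTCNNNGAA were in the window of Klk10 (8.30% of all windows), and the C/EBP letters TTGCNNAA in both windows of Klk11 (10.8%). The nuclear receptor letters AGGTCA, part of the sites of LXR and PPARγ, was in 0 of 12 (16.3%), TATAAA in 0 of 12 (13.6%) and the grainyhead letters AACNNGTT in 0 of 12 (4.20%). A match is a description of letters, and its absence from this window says nothing of a factor.

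Genes that act with the kallikreins were followed as 5 lists beside the locus, of which 37 of 44 genes passed the filter on low counts. The lists were drawn up with earlier results of these data known. Their calls and p-values are therefore given as a description, and nothing is read from the counts. In IMQ_Veh against UTX_Veh, 27 of the 37 were higher and 7 lower in edgeR (adjusted over all genes). Of all genes tested, 33.0% were called higher there and 28.9% lower. All 5 tested activating or upstream proteases and all 7 other stratum corneum proteases were higher. The kallikrein inhibitors divided, with 5 of 9 higher and 2 lower. Spink7 had 22.5 ± 13.8 CPM in IMQ_Veh and 0.106 ± 0.148 CPM in UTX_Veh (log2 7.60 ± 0.81, edgeR adjusted p = 1.6e-05; 9.70 without UTX_Veh replicate 1), and Spink12 had 5.27 ± 1.91 and 0.136 ± 0.0851 CPM (5.20 ± 0.43, edgeR adjusted p = 3.15e-06). Serpina12, encoding vaspin, which inhibits KLK7 in humans, was lower at 54.1 CPM in IMQ_Veh and 155 CPM in UTX_Veh (-1.53 ± 0.30, edgeR adjusted p = 0.00104), and so was the broad protease trap A2m (-2.78 ± 0.29, edgeR adjusted p = 1.31e-05).

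Among the proteases that share the stratum corneum, Prss27 was higher by log2 5.84 ± 0.50, Casp14, which processes filaggrin, by 4.10 ± 0.39, and Blmh, which degrades filaggrin to amino acids, by 3.05 ± 0.19 (edgeR adjusted p = 3.88e-06, 8e-06 and 6.17e-07). The membrane protease Tmprss13 was higher by 1.18 ± 0.14 and the matriptase gene St14 by 0.61 ± 0.12 (edgeR adjusted p = 3.7e-05 and 0.000889). Of the genes of the corneodesmosome, 5 of 7 were higher and 2 lower. The 7 include the intracellular plaque genes Pkp1 and Jup, both higher, beside corneodesmosin and the cadherins. The 2 lower were the cadherin genes Dsg1a and Dsg1c. Dsg1a had 973 CPM in IMQ_Veh and 1590 CPM in UTX_Veh (log2 -0.71 ± 0.12), and Dsg1c had 1.68 and 5.77 CPM (-1.78 ± 0.37). The related cadherin gene Dsg1b was higher, at 361 CPM in IMQ_Veh and 139 CPM in UTX_Veh (1.38 ± 0.16, edgeR adjusted p = 2.36e-05). Cdsn, corneodesmosin, had 1070 CPM in IMQ_Veh and 630 CPM in UTX_Veh (0.77 ± 0.13, edgeR adjusted p = 0.000377), and the desmocollin Dsc1 had 683 and 254 CPM (1.43 ± 0.17, edgeR adjusted p = 2.89e-05). Of 9 further substrates and signalling genes, 5 were higher and 3 lower, among them filaggrin itself (Flg, 2.48 ± 0.32, also in the suprabasal marker list) and the filaggrin-like Flg2 (-4.32 ± 0.40; edgeR adjusted p = 5.84e-05 and 6.16e-06).

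Against IMQ_Veh, 7 of the 37 genes were higher and 2 lower with GW3965, and 7 higher and 3 lower with troglitazone. Of all genes tested, 3.71% were called higher and 2.88% lower with GW3965, and 4.69% and 4.65% with troglitazone. Serpina12 was higher in both drug groups, with 172 CPM in IMQ_GW3965, 151 CPM in IMQ_Troglitazone and 54.1 CPM in IMQ_Veh (1.67 ± 0.30 and 1.49 ± 0.30, edgeR adjusted p = 0.0158 and 0.0163). Flg2 was higher by 2.50 ± 0.37 and 2.81 ± 0.37 (edgeR adjusted p = 0.00656 and 0.00632), and Cdsn by 0.57 ± 0.13 and 0.62 ± 0.13 (0.0289 and 0.0179). Plau, the urokinase gene, was lower in both drug groups (log2 -0.57 ± 0.11 and -0.74 ± 0.11, edgeR adjusted p = 0.0177 and 0.00682). The cytokine Il1b was lower at 16.2 CPM in IMQ_GW3965 and 10.9 CPM in IMQ_Troglitazone, with 120 CPM in IMQ_Veh (-2.90 ± 0.65 and -3.46 ± 0.66, edgeR adjusted p = 0.0273 and 0.0136). The LEKTI gene Spink5 was called higher with troglitazone, at 787 CPM against 586 CPM in IMQ_Veh (0.43 ± 0.12, edgeR adjusted p = 0.0475). Tslp was called higher with GW3965, at 8.80 against 3.87 CPM in IMQ_Veh (1.19 ± 0.23, edgeR adjusted p = 0.0182). Kallikreins can raise Tslp in keratinocytes through F2rl1, but their part in this difference was not tested.

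These list calls also rested on few libraries. Leaving out single libraries, the calls with GW3965 ranged from 1 without IMQ_GW3965 replicate 1 to 15 without IMQ_Veh replicate 3, and those with troglitazone from 2 without IMQ_Veh replicate 1 to 15 without IMQ_Veh replicate 3. Flg2 kept its call with both drugs in each of these fits, and Plau with troglitazone. Of the 6 such fits per comparison, the call was lost in 5 for Cdsn and in 4 for Il1b with GW3965, and in 5 for Spink5, 3 for Cdsn and 1 for Il1b with troglitazone. Plau and Tslp lost theirs in 2 with GW3965. Serpina12 lost its call with both drugs without IMQ_Veh replicate 1, at log2 1.70 with GW3965 and 1.52 with troglitazone, and also without IMQ_GW3965 replicate 1 (1.65) and without IMQ_Troglitazone replicate 3 (1.20). Between the drugs 0 of 37 were called by edgeR and 2 by DESeq2, and 4 had an unadjusted edgeR p under 0.05, against the 16.0% of all genes given above.

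**Figure D5:**
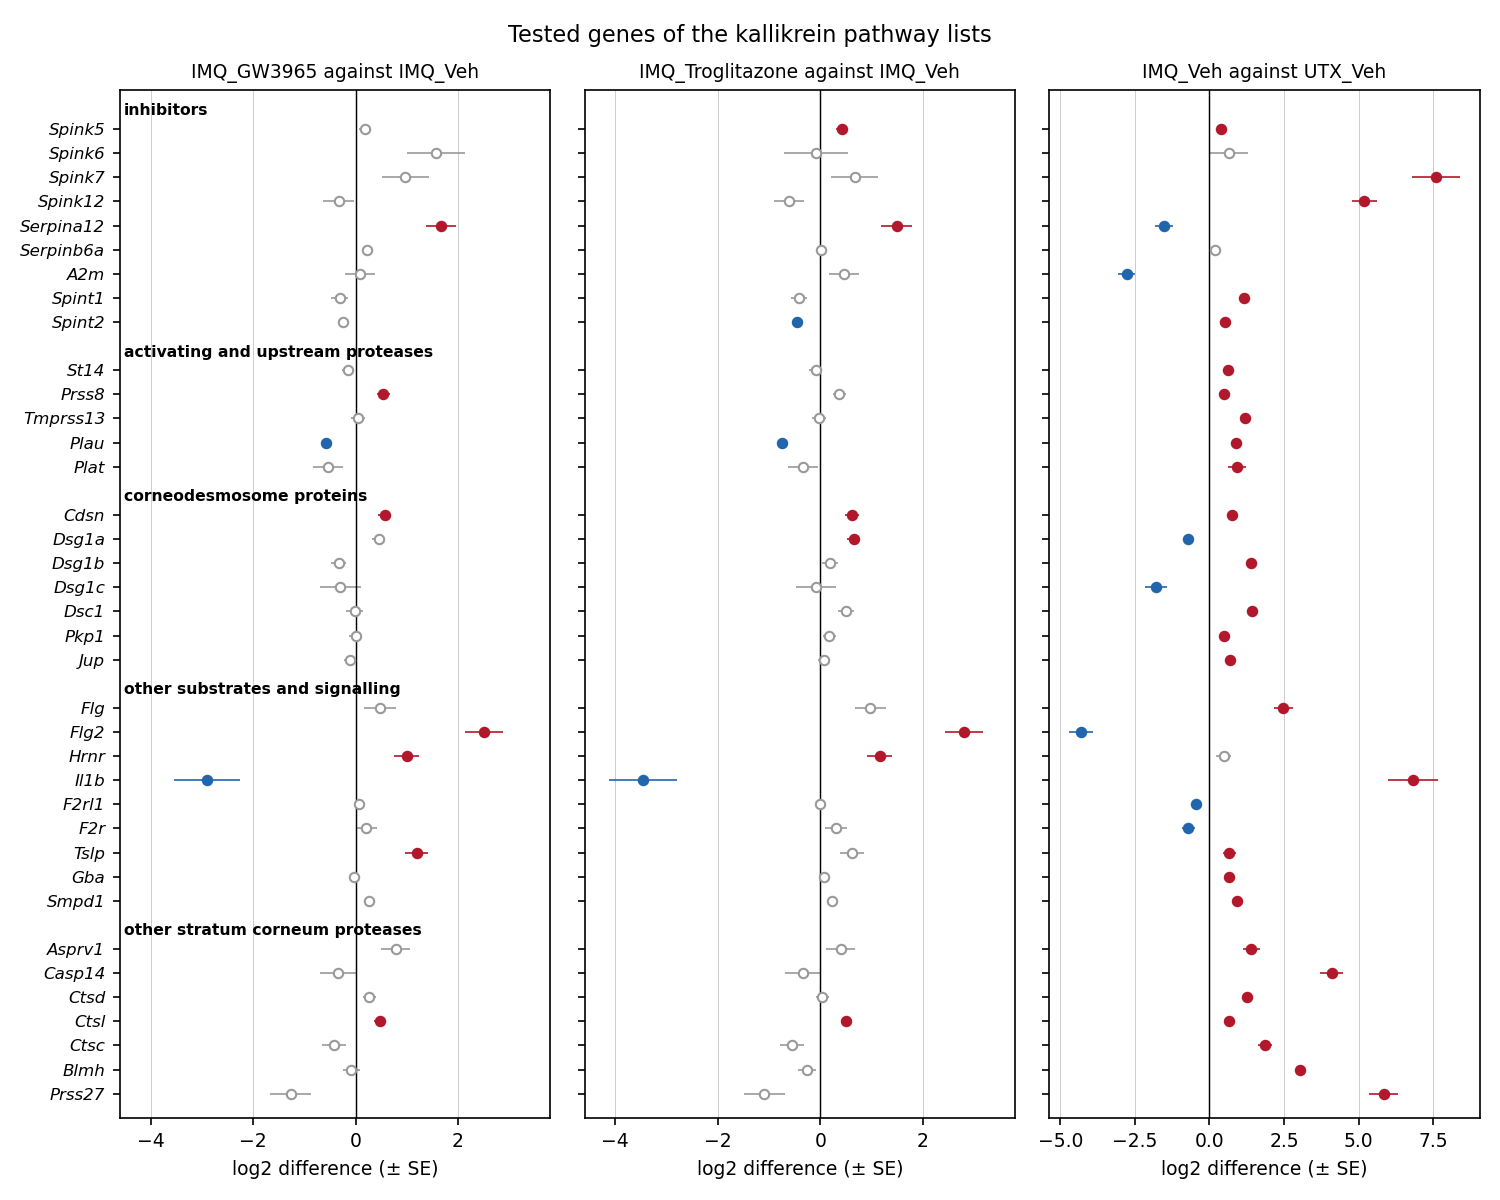
Fitted log2 differences ± SE (horizontal) of the 37 tested genes of 5 lists (rows): IMQ_GW3965 against IMQ_Veh, IMQ_Troglitazone against IMQ_Veh, and IMQ_Veh against UTX_Veh. Filled red points were called higher, filled blue points lower, and open points were not called. In the right panel 27 of 37 are red, where 33.0% of all genes tested were called higher.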

How the data were processed

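For each library the authors deposited a gene table holding expected counts (estimated reads per gene, not scaled), TPM and FPKM (both scaled by the authors for depth and length). The mRNA kit was stranded, per the labels' protocols. RSEM 1.3.3 and STAR 2.7.3a, with Trim Galore and FastQC and the build GRCm38 (mm10), are listed in the submitters' processing notes. The sources used here give neither annotation release nor strand setting. Symbols came from GENCODE M21 (52083 of 55416 identifiers). Expected counts were rounded and tested in R 4.3.3 with edgeR 4.0.16 (filterByExpr by group, TMM, quasi-likelihood test, 12 libraries, 8 residual degrees of freedom, Benjamini-Hochberg over 17130 genes, threshold 0.05). The scripts were tested on simulated data. TPM served for levels between genes, and FPKM as a check of their order. The members and lists were chosen with earlier results of these data known. All members were named; of each list, up to 4 called genes of largest fold in a comparison, or the 2 most abundant where none was called, could be named. Alternatives were DESeq2 1.42.0, scaling by RLE or upper quartile, other filters, a replicate block, the lane field, fits of 2 groups and fits without libraries. No library pair of a group agreed within sampling noise (chi-square per degree of freedom of at least 7.79).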

Additional observations from a re-analysis of the deposited data

How the results depend on the processing

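Between IMQ_Veh and UTX_Veh, 10 of 10 kallikreins were called higher under every alternative run. Upper-quartile scaling moved the median log2 of all genes there to -0.114. Against IMQ_Veh, member calls with GW3965 were 3 with the lane field, 0 with only the 2 groups compared and 0 to 5 leaving out single libraries; with troglitazone they were 3 with the replicate block, 2 with the lane field, 0 with only the 2 groups and 0 to 6 leaving out single libraries. List genes called with GW3965 were 5 with the lane field, 1 with only the 2 groups and 1 to 15 leaving out single libraries; with troglitazone 16 without both libraries that stood apart, 0 with only the 2 groups and 2 to 15 leaving out single libraries; between the drugs 2 with DESeq2. All genes called with GW3965 were 2222 with DESeq2, 549 with the lane field, 3041 without both libraries, 102 with only the 2 groups and 105 to 3645 leaving out single libraries; with troglitazone 2590, 1009, 4166, 0 and 162 to 4460; between the drugs 960 with DESeq2, 140 without a filter, 131 with the replicate block, 0 without both libraries, 9 with only the 2 groups and 0 to 73 leaving out single libraries. A fit of 2 groups uses fewer libraries to estimate the spread; for the rest the cause was not tested. Same-numbered libraries did not deviate together in every pair, so the block is a description only. Uncalled values near 0 changed sign: without both libraries Klk7 was at -0.03 with GW3965 and Klk12 at -0.32 between the drugs. Leaving out single libraries, Klk7 ran from -0.01 to 0.15 and Klk8 from -0.27 to 0.09 with GW3965, and Klk7 from -0.12 to 0.04 with troglitazone. Between the drugs, Klk5 ran from -0.03 to 0.15, Klk6 from -0.15 to 0.10, Klk9 from -0.20 to 0.06, Klk10 from -0.28 to 0.08, Klk12 from -0.32 to 0.47, Klk13 from -0.34 to 0.11 and Hrnr from -0.30 to 0.09. In an alternative chosen after seeing the data, other suprabasal marker choices moved the family share between IMQ_Veh and UTX_Veh to log2 differences of 1.34 to 2.72, against 1.97. FPKM gave the order of TPM in each group. Depth limits Klk14 and Klk12 in UTX_Veh, and floors cover counting error only.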
